A study of Mus musculus with 59 samples.

Results

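The transcriptome described here is that of the prefrontal cortex of wild-type mice that received vehicle, in the 10 libraries whose deposited columns carry the wild-type vehicle label, of 59 libraries in the series. They are the libraries with no drug and no mutant allele, and since the labels give them vehicle, they are called vehicle-treated rather than untreated. The mice were C57BL/6J, 5 females and 5 males, with the genotype label Wildtype, and were sampled on postnatal day 25 after 3 weeks of dosing through maternal milk (postnatal days 3 to 24). The other 49 libraries come from mice heterozygous for a Shank3 knock-in allele and from fluoxetine and lithium arms, which with sex make 12 groups. The labels name no litter and do not state that each library is a separate animal, so p-values measure only the spread between libraries. For the comparison of sexes that spread was estimated over all 59 libraries, and for the other tests over these 10. Libraries are named by sex and replicate number, such as female 3.

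The prefrontal cortex plans and regulates behaviour, and its circuits are built mainly from glutamatergic pyramidal neurons, with local GABAergic interneurons, astrocytes, oligodendrocytes, microglia and vessels around them. The weeks around weaning are a time of synapse refinement and myelination. Many synaptic proteins come from families of paralogous genes, and the mix of paralogs sets properties such as the kinetics of a receptor or the calcium sensitivity of a kinase.

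Library totals ran from 24560951 to 32623595 reads, and size factors from 0.866 to 1.117. Of 18088 genes listed, 17984 to 18032 had at least 1 read in a given library. Levels are given in a pair of measures. The normalized count is the gene's read count divided by the size factor of its library, and it compares 1 gene between libraries. The per-length level, written as TPM (a transcript abundance), is the normalized count divided by the length of the longest annotated protein-coding transcript and scaled to the same sum in every library, and it compares genes. Values are means ± SD over the 10 libraries unless stated otherwise. Pearson correlations of log2 values between pairs of these libraries lay between 0.972 and 0.990 across genes, which are not independent replicates. No pair agreed within sampling noise.

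The most abundant single transcripts came from the mitochondrial genome. Mitochondrial genes held 7.20 ± 1.05% of the normalized counts, from 5.15% in female 5 to 8.83% in female 4. The leading gene was mt-Co1, a subunit of cytochrome c oxidase, with a normalized count of 796755 ± 120149 and a level of 45461 ± 5324 TPM. Next among the mitochondrial genes by normalized count stood mt-Cytb, the cytochrome b of complex III (245067 ± 35444), and the complex I subunits mt-Nd4 (207661 ± 30640.4) and mt-Nd1 (184886 ± 31647). Between libraries, mt-Co1 ranged from 550695 in female 5 to 948166 in female 3 with a median of 799336. Female 5 was lowest for 8 of the 13 mitochondrial protein genes and female 4 was highest for 8 of them.

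A further 2.23 ± 0.40% of the normalized counts was given to pseudogenes on chromosome 1 that copy part of the mitochondrial genome, annotated on the minus strand between positions 24611535 and 24616197 of GRCm38. Of these, Gm28661, Gm28437, Gm10925, Gm10222, Gm28438 and Gm28439 match mt-Co2, mt-Co3, mt-Atp6, mt-Nd4l, mt-Nd3 and mt-Nd4 with 0 mismatches over the aligned bases. A stretch of 60 bases from the middle of mt-Atp6, a subunit of ATP synthase (chrM:8236-8295, plus strand), and the matching stretch of Gm10925 (chr1:24614283-24614342, minus strand), both from the GRCm38 transcripts of GENCODE M21, are printed 5′ to 3′ along the gene, in lower case throughout since no base differs, to show that this sequence does not tell them apart.
mt-Atp6: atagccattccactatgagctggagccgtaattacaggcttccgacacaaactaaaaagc
Gm10925: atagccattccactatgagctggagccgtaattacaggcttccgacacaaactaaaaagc
Gm28439 had 0 counts in every library. For the other pairs, the count given to the mitochondrial gene varied more than the sum over the gene and its copy. The normalized count of mt-Atp6 ran from 16377 in female 2 to 142161 in female 4 with a median of 31325, a CV of 92.4%, where the CV is the SD over the mean. Gm10925 had a CV of 15.6%, and the sum of the pair one of 21.4%. The share of the pair given to mt-Atp6 lay between 7.69% and 41.3%. For mt-Co2 and its copy the CVs were 37.9% and 28.2% against 17.6% for the sum, and for mt-Co3 and its copy 53.3% and 18.8% against 15.4%. The levels of mt-Atp6, mt-Co2, mt-Co3, mt-Nd3 and mt-Nd4l and of their copies are therefore uncertain one by one.

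**Figure D1:**
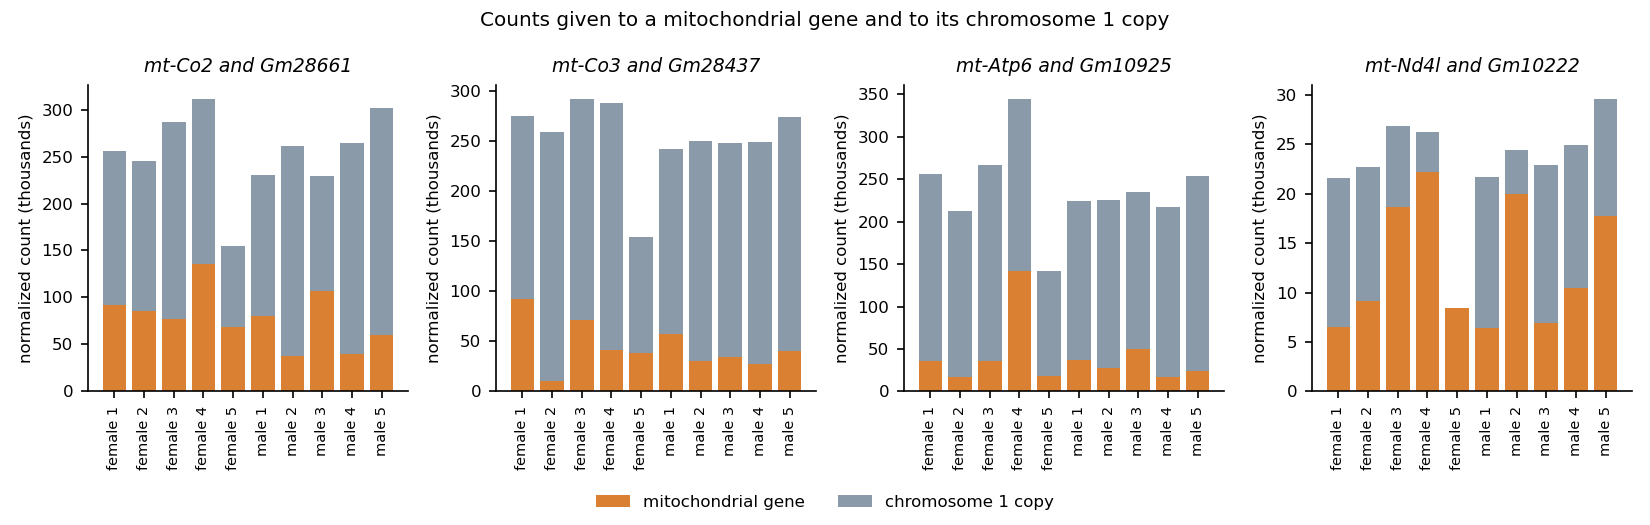
Normalized counts (y axis, as counts divided by 1000) given to 4 mitochondrial genes (orange) and to their chromosome 1 copies (grey) in each of the 10 wild-type vehicle libraries (x axis). The height of the stacked bars varied less than the orange part, and for mt-Atp6 the orange part reached 142161 in female 4, with 49917 in the next library.

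Together the mitochondrial genes and these copies held 24.6 ± 3.18% of the TPM. With them included, the 100 most abundant genes held 35.2 ± 2.79% of the TPM, and without them 16 ± 0.42%. The nuclear transcriptome was spread widely, since 1037 genes made up 50% of its TPM. Mean levels reached 1 TPM for 15082 genes, 10 TPM for 9690, 100 TPM for 1655 and 1000 TPM for 66. Nuclear protein-coding genes held 88.7 ± 1.36% of the normalized counts and long intergenic noncoding RNAs 1.05 ± 0.06%. Among the latter, Meg3, a maternally expressed imprinted RNA, was the tenth gene of the whole table by normalized count (114182 ± 14134), but at 695 ± 89 TPM it stood lower on the per-length scale.

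The 30 most abundant nuclear genes on the TPM scale came from a few kinds of cellular function. Energy metabolism was represented by the glycolytic enzymes Gapdh (chr6:125161715-125166467, minus strand, GRCm38), at 3971 ± 348 TPM the highest nuclear gene, and Aldoa at 1928 ± 252, by the creatine kinase Ckb at 1499.9 ± 193 and by the respiratory chain subunit Cox8a at 1584 ± 108. Calcium signalling was represented by the calmodulin genes Calm2 and Calm3, by Nrgn, a calmodulin-binding protein of dendrites (2207 ± 326), and by Camk2a (1599 ± 189).

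Among genes of the presynaptic terminal and secretory pathway, Snap25, a SNARE protein of vesicle fusion, stood at 2568 ± 237 TPM. Cpe, the carboxypeptidase that trims neuropeptides, stood at 2448 ± 162, Atp6v0c, a subunit of the vesicular proton pump, at 1887 ± 188, Slc17a7, the vesicular glutamate transporter VGLUT1, at 1463 ± 139, and Syp, the vesicle protein synaptophysin, at 1430.1 ± 107. Of genes that glia or other support cells express most in brain, Apoe, the lipid carrier of astrocytes, reached 2033 ± 264 TPM, the protease inhibitor Cst3 1956 ± 216, the prostaglandin synthase Ptgds 1741 ± 277, the secreted synapse-forming protein Sparcl1 1369.7 ± 96.5 and Mbp, myelin basic protein, 1348 ± 390.4. Translation, protein turnover and iron storage supplied Eef1a1 (2468 ± 143), Ubb (2378 ± 187), Hspa8 (1856 ± 139) and Fth1 (1920.4 ± 179). The list was completed by the cytoskeletal genes Tuba1a, Stmn1 and Actg1, by Ywhah, and by Atp1b1, Ndrg4 and Selenow, with levels between 1348 (Mbp, the thirtieth) and 2161 TPM (Tuba1a). The 10 leading nuclear genes together held 3.40 ± 0.08% of the nuclear TPM.

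Markers of cortical tissue were present in all 10 libraries. All 9 markers of excitatory neurons and all 16 of cortical layers were detected. The summed normalized count of the layer list, which holds for example Cux2, Rorb, Fezf2 and Foxp2, ran from 24694 to 28270, a CV of 3.81%. Its members were less steady than the sum, with a median CV of 16.5%, against 10.4% over all 13750 genes. The excitatory list, led by Camk2a, Slc17a7 and Nrgn, ran from 150227 in female 2 to 222582 in male 2, a CV of 12.5%. For interneurons the sum ran from 41807 to 52329, for astrocytes from 149401 to 173868, for microglia from 13581 to 17120 and for endothelial cells from 11794 to 15103. In bulk tissue, fewer cells of a type and less RNA per cell cannot be told apart.

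Markers of other tissues differed in level and in their spread over libraries. Of 12 choroid plexus and ependymal markers 5 were not in the table, and Ttr, the leading choroid plexus transcript, ran from 2.31 in male 3 to 11.6 in male 4 with a median of 3.25, so that the defining transcript of this tissue was near 0. The 10 hippocampal markers summed to 12462 to 13386, mainly through Mpped1 (7524 ± 658), Zbtb20 (2665 ± 556) and Ociad2 (2010.4 ± 215). Others of the list, which mark the dentate gyrus, were lower, with Prox1 at 313 ± 43.1, C1ql2 at 11.4 ± 8.18 and Dsp at 13.2 ± 5.48. Hemoglobin transcripts were present in every library, with Hbb-bs at 4050.3 ± 550.2. Markers of the olfactory bulb differed widely between libraries, and are described with the variability. No list of markers separates the prefrontal area from other cortex, so the area on the label was not tested.

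Relative levels within 46 gene families followed, with 213 of 221 listed members in the table and 3 (Drd4, Adra2b and Chrm5) under a mean normalized count of 10. Members were ordered by mean TPM, and each of 164 pairs of neighbours in an order was tested with an exact two-sided sign-flip permutation test of the log2 ratio within a library (smallest possible p = 0.00195), with Benjamini-Hochberg adjustment over the 164 pairs. Of these, 140 passed at 0.05, which is 85.4%, so that passing is the rule and not a property of any family. The replicate error does not cover the choice of transcript length: 24 of the 140 changed direction with the union of exons or with the median transcript as the length, while 116 kept it with each of the 3 lengths. Steps described below without a remark belong to these 116. Where every library agreed, the adjusted p was 0.00281 (exact sign-flip test).

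**Figure D2:**
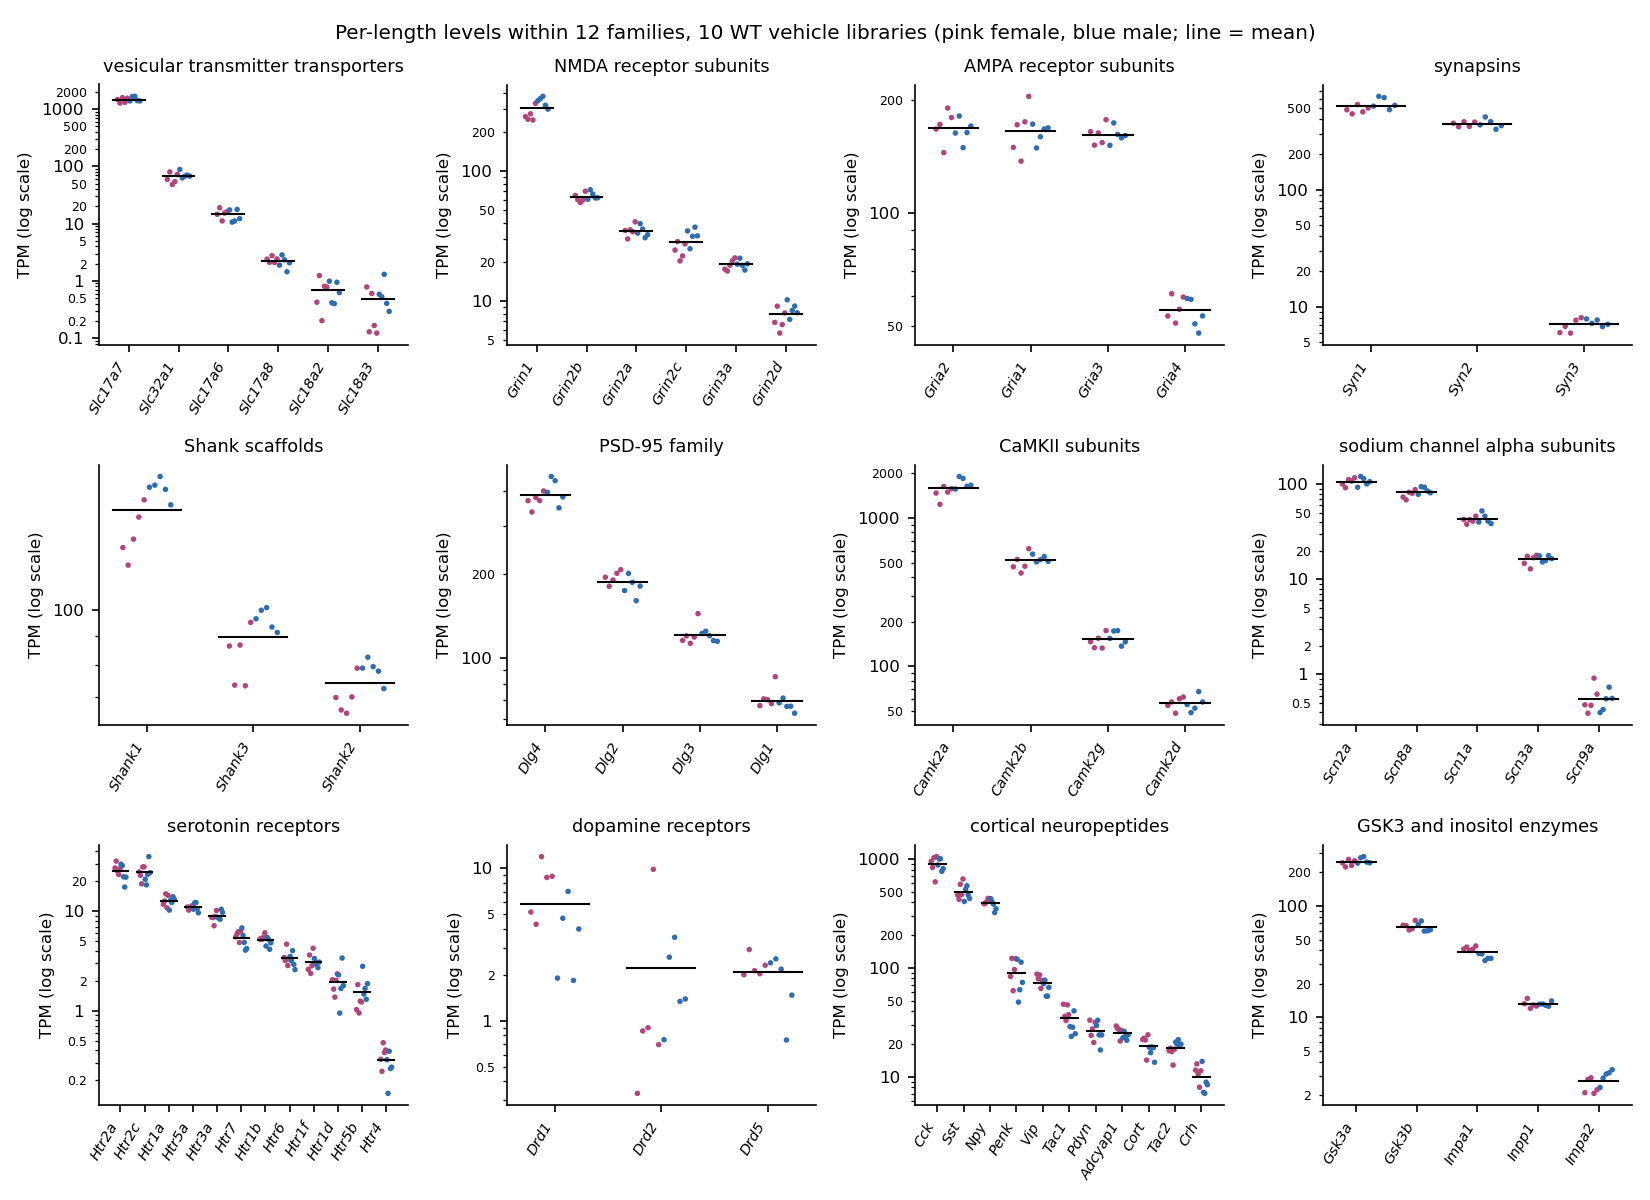
Per-length levels (TPM, log scale) of the members of 12 families in the 10 wild-type vehicle libraries (pink, females; blue, males; black line, mean), ordered by mean level. Slc17a7 stood far above the other vesicular transporters at 1463 TPM, Gria1, Gria2 and Gria3 overlapped, and Drd2 was spread by female 4.

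Vesicular transporters mark the transmitter a neuron releases. Slc17a7 ranged from 1268 in female 2 to 1662 in male 3 with a median of 1429.7 TPM. It held 94.5% of the summed level of its list and stood 22.1-fold over Slc32a1, the GABA transporter of vesicles (66.8 ± 11.8 TPM), which stood over Slc17a6 (VGLUT2, 14.5 ± 3.05) and Slc17a8 (VGLUT3, 2.23 ± 0.412). The monoamine transporter Slc18a2 and the acetylcholine transporter Slc18a3, whose neurons send axons to the cortex but have most of their cell bodies elsewhere, stood at 0.682 ± 0.324 and 0.491 ± 0.362 TPM and did not differ beyond the spread (adjusted p = 0.31, exact sign-flip test).

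The release machinery was dominated by single paralogs. Syt1, the fast calcium sensor of release, held 97.9% of the level of its 3 listed paralogs, from 785 in male 4 to 1027 in male 2 with a median of 892 TPM. Vamp2, the vesicle SNARE, held 92.5% of its list. Synapsins and complexins were shared between pairs: Syn1 (518 ± 60.1) stood 1.41-fold over Syn2 (365 ± 25.4), and Cplx1 (665 ± 46.1) stood 1.29-fold over Cplx2 (519 ± 58), with Syn3 at 7.1 ± 0.736 and Cplx3 at 10.9 ± 4.06.

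Glutamate receptors split into families with even and uneven use of paralogs. The AMPA receptor subunits Gria2, which makes the channel impermeable to calcium, Gria1 and Gria3 stood at 168 ± 14, 166 ± 18.5 and 162 ± 8.67 TPM. Neither Gria2 and Gria1 (adjusted p = 0.586) nor Gria1 and Gria3 (0.625) could be ordered by the exact sign-flip test. Gria4 was 2.95-fold under Gria3, in 10 of 10 libraries.

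NMDA receptors combine the obligatory subunit Grin1 with Grin2 subunits that set kinetics, and Grin2b is typical of early and Grin2a of later development. Grin2b ranged from 57.3 in female 3 to 71.9 in male 2 with a median of 62.2 TPM and Grin2a from 30.1 in female 2 to 40.8 in female 5 with a median of 34.6. The 2 ranges did not overlap, and Grin2b stood 1.83-fold over Grin2a in every library (log2 ratio 0.88 ± 0.10 SD). Below them followed Grin2c (28.4 ± 5.39), Grin3a (19.2 ± 1.58) and Grin2d (7.98 ± 1.38). Grin1 had the highest level (307 ± 46.9), but with the median transcript length it stood under Grin2b by a log2 ratio of -1.58, so this step rests on the length used.

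Of the kainate receptor genes, Grik5, which codes for an auxiliary high-affinity subunit, held 68.2% of the level and stood 4.38-fold over Grik3. The metabotropic receptors were spread more evenly: the first was Grm5 at 58.1 ± 5.11 TPM (24.8% of the list) and the last Grm8 at 13 ± 2.08, and the order of Grm5, Grm3 and Grm2 changed with the length used.

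In the postsynaptic density, scaffold proteins hold these receptors in place. Shank1 ranged from 120.1 in female 2 to 173 in male 3 with a median of 155 TPM, Shank3 from 73.4 in female 4 to 101 in male 3 with a median of 92.3 and Shank2 from 65.6 in female 3 to 82.4 in male 2 with a median of 75.2. In every library Shank1 stood over Shank3, by 1.68-fold on average, and Shank3 over Shank2, by 1.21-fold. Dlg4, which codes for PSD-95, stood at 387 ± 36.1 TPM and 2.05-fold over Dlg2. Homer1 (87.1 ± 24) stood 3.33-fold over Homer2 and had a CV of 28%, against 7.04% for Shank2. The short form of Homer1 is induced by activity, but its forms were not measured apart, and the part of activity in this CV was not tested. The order of the first members of the SAPAP scaffolds (Dlgap3, Dlgap1) changed with the median transcript length. Nlgn2, the neuroligin of inhibitory synapses, stood 3.47-fold over Nlgn3.

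The calcium-activated kinase CaMKII was mainly Camk2a (68.6% of the family), which stood 3.09-fold over Camk2b (517 ± 55.1 TPM), itself 3.38-fold over Camk2g (153 ± 16.5). Calmodulin genes code for the same protein, and Calm2 at 3416 ± 285 TPM stood 1.78-fold over Calm3 (1919 ± 128).

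Of the GABA-A alpha subunits, Gabra3 ranged from 84.3 in male 4 to 132 in female 4 with a median of 125 TPM and Gabra2 from 19 in male 3 to 41.9 in female 2 with a median of 29.7, with no overlap. Gabrb2 (83.1 ± 11.9) stood 3.17-fold over Gabrb1 (26 ± 2.1) among the beta subunits. Gabrd, the subunit of extrasynaptic receptors, stood at 74.8 ± 9.08 TPM.

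Transporters clear transmitter from the synapse. Slc1a2 (GLT-1) and Slc1a3 (GLAST), the astrocytic glutamate transporters, stood at 646 ± 35.2 and 436 ± 46.2 TPM, and the neuronal Slc1a1 at 88.3 ± 5.67. The GABA transporter of astrocytes, Slc6a11 (GAT3), stood at 127 ± 26.7 TPM.

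Among voltage-gated channels, Scn2a (107 ± 9.9 TPM) and Scn8a (82.6 ± 8.1), the sodium channels of pyramidal neurons, led, but their order reversed with the median transcript length. Scn8a stood 1.92-fold over Scn1a, the channel of fast-spiking interneurons (43 ± 4.36), and Scn3a, typical of the embryonic brain, followed at 16.3 ± 1.63. Kcna2 (61.2 ± 3.5) led the Kv1 channels and Hcn2 (82.5 ± 13.3, 71.2% of the family) the pacemaker channels. Of the Kv3 channel genes, Kcnc4 (59.8 ± 6.45) and Kcnc1 (54.2 ± 4.29) could not be ordered (adjusted p = 0.0751, exact sign-flip test). Among the calcium channel alpha1 subunits Cacna1a, the P/Q-type channel of release sites, led with 70 ± 7.96.

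Receptors for neuromodulators mostly had lower levels. The serotonin receptors Htr2a and Htr2c stood at 25.5 ± 4.29 and 24.6 ± 5.03 TPM and could not be ordered (log2 ratio 0.06 ± 0.49, 5 of 10 libraries, adjusted p = 0.718, exact sign-flip test). They were followed by Htr1a (12.7 ± 1.51), the inhibitory receptor, and Htr5a (11 ± 0.805). The acetylcholine receptor Chrm1 stood at 76.7 ± 7.74 TPM, 2.56-fold over Chrm3. The adrenergic receptors Adra1d, Adrb1 and Adra1b (24.4 ± 5.03, 21.7 ± 3.33 and 18.7 ± 4.01) were not separated by the test. Of the opioid receptor genes Oprl1, which codes for the nociceptin receptor, held 70.4% and Oprm1 2.8%.

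Dopamine receptors varied widely between libraries. Drd1 ranged from 1.84 in male 4 to 12 in female 3 with a median of 4.94 TPM and Drd2 from 0.333 in female 1 to 9.86 in female 4 with a median of 1.12. Drd2 was highest in female 4, and Drd1 stood over Drd2 in 9 of 10 libraries (adjusted p = 0.00513, exact sign-flip test). Drd2 exceeded Drd5 (2.08 ± 0.603) in only 4 of 10 libraries, although its mean was higher. Drd2 and Adora2a, which codes for an adenosine receptor, are also markers of striatal neurons, and the whole striatal list of 12 genes summed to 7458 to 9292, a CV of 8.42%. Its members were less steady, with a median CV of 40.2%. The sum was highest in female 4 (9292), but female 1 (9235) and male 3 (9201) lay close to it. The mean log2 deviation from the gene means was highest in female 4 (0.45) and lowest in female 1 (-0.29). Of the 12 genes 2 were highest in female 4, Drd2 among them. What part striatal tissue has in these values was not tested.

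The listed neurotrophin and receptor genes were led by Ntrk2, which codes for the BDNF receptor TrkB, at 196 ± 11.9 TPM with a CV of 4.06%. Bdnf itself stood at 17.3 ± 3.15 with a CV of 19.7%. Genes of the enzymes that lithium, a drug of other arms, is known to inhibit were measured here without it. Gsk3b stood at 65.3 ± 5.44 TPM, 1.71-fold over the inositol monophosphatase Impa1 (38.3 ± 3.98), and Inpp1 (13.2 ± 0.779) stood over Impa2 (2.7 ± 0.47). Gsk3a (249.7 ± 16.7) stood over Gsk3b with the longest transcript and under it by a log2 ratio of -0.31 with the median transcript. Of 11 neuropeptide genes Cck was highest (897 ± 138 TPM), then Sst (501 ± 80.5) and Npy (395 ± 36.5), and the next was Penk (90.5 ± 28).

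Cytoskeletal families had graded orders. The beta tubulins ran from Tubb2a (1205 ± 144 TPM) through Tubb4a (856 ± 121), Tubb3 (583 ± 63.8), Tubb5 (529 ± 46.8) and Tubb4b (494 ± 42.3) to Tubb2b (227 ± 37.1). Actg1 stood 1.34-fold over Actb. Tuba1a shares 77.0% and Tuba1b 68.9% of its 31-base words with other genes, so the split between alpha tubulins is uncertain, while the summed family is not affected by a read moved between its members.

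Between-library variability was measured as the CV of the normalized count for the 13750 genes with a mean of at least 50. The median CV was 10.4%, where counting alone gives 3.63%, and the middle 50% of genes lay between 7.59% and 14.3%. The same median was 9.77% to 13.5% in the 5 other genotype and drug arms. Of the 13750 genes, 787 had a CV under 5% and 98 a CV over 50%. With the SD taken within each sex the median CV was 9.43%.

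The steadiest genes with a mean of at least 1000 were Rnps1, a splicing factor, with a CV of 1.38% (3690.1 to 3841), Tubgcp3, a gamma tubulin complex protein (1.57%), and Brwd1 (1.88%). The first 2 fell under the CV that counting alone gives, 1.65% and 2.95%. Also among the 15 lowest were Eif4b, a translation initiation factor (2.6%), Nbr1, an autophagy receptor (2.7%), and Hdgf (2.73%). These 15 were picked for their low CV, and common reference genes were not. Gapdh had a CV of 9.84%, Actb of 9.31%, Hprt of 13.1% and B2m of 12.8%, while Sdha had 3.47% and Tbp 5.47%. Over the 15 listed reference genes the median CV was 8.71%, against 10.4% over all 13750 genes.

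Among the 98 genes with a CV over 50%, 42 (42.9%) share more than 50% of their 31-base words with another gene, against 3.18% of all 13750. Hist2h2aa2, a histone gene, had the highest CV, 316%, with 625 in male 3 and 0 in the other 9 libraries. Rps12-ps3, Rpl15-ps3, Gm12671 and Rpl14-ps1, which are also at 0 in some libraries, followed with CVs from 147% to 192%. Their levels are uncertain, since most of their words occur in other genes too. A set of 46 was protein-coding and shared under 10% of words, and of these 4 were Y-linked.

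**Figure D3:**
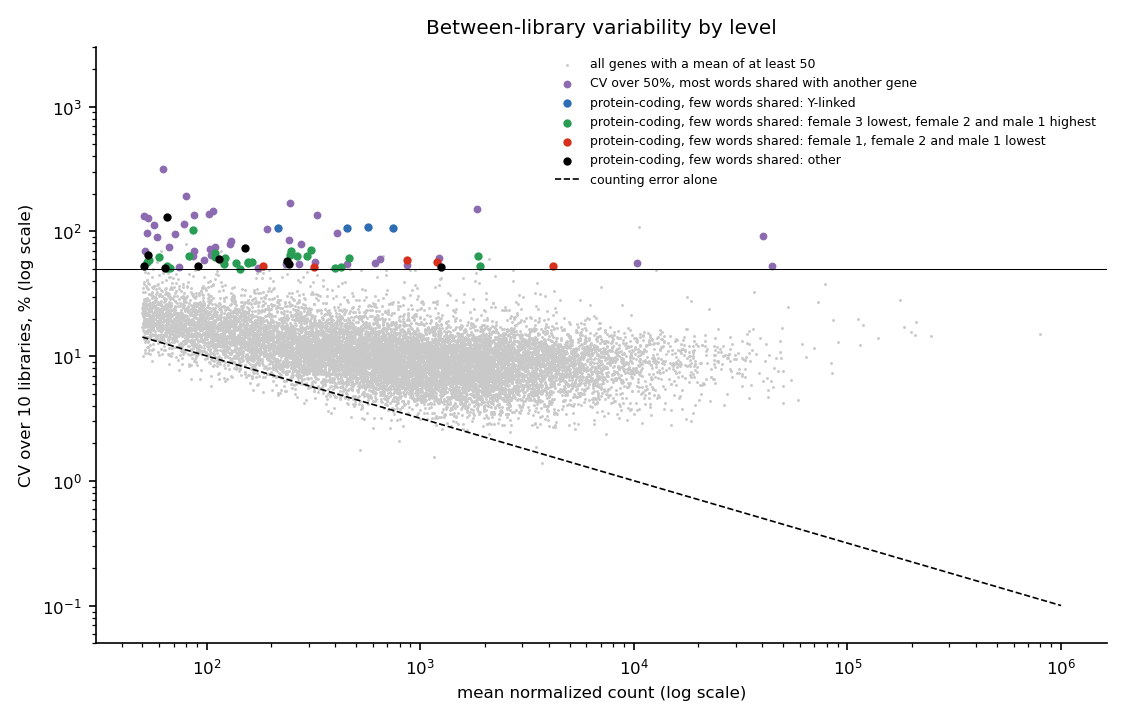
CV over the 10 libraries (y axis, log scale) against the mean normalized count (x axis, log scale) for 13750 genes, with the CV from counting alone as a dashed line. Coloured points mark genes with a CV over 50%: 42 with most words shared, and 46 protein-coding genes with few shared words, by which libraries were lowest and highest.

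In 27 of these 46 genes female 3 was lowest and female 2 and male 1 were the 2 highest libraries. This pattern was picked after the values were seen, and it held for 3.47% of all 11575 protein-coding genes with few shared words. The 27 include Omp, Eomes, Tbx21, Cdhr1, Th, Trh, Scgn, Shisa3 and Calb2. Omp is the marker of olfactory sensory neurons, and Eomes, Tbx21 and Cdhr1 mark the mitral and tufted cells of the olfactory bulb, while Th and Calb2 mark its periglomerular interneurons. For Eomes, females 1 to 5 held 237, 627, 1.83, 366 and 381, and males 1 to 5 held 637, 72.7, 80.8, 365 and 318. Female 3, male 2 and male 3 were lowest and female 2 and male 1 highest. The other bulb markers followed, with Cdhr1 from 148 in female 3 to 3741 in male 1 with a median of 1883 and Th from 56.8 in female 3 to 936 in female 2 with a median of 468.

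For the whole olfactory bulb list, 10 of 11 genes were in the table, and all 10 were lowest in female 3 and highest in male 1 (6 genes) or female 2 (4 genes). Over all 13750 genes, female 3 was lowest for 1846. The list summed to 7141 in female 3 and 23621 in male 1 with a median of 15746. In the other 49 libraries it ran from 6727 to 39840 with a median of 9973, so the spread is not limited to the vehicle group. Reln is in both the bulb and the interneuron list. Of the 16 interneuron markers 9 were lowest in female 3, but 4 others were highest there. The interneuron genes Gad1 (6801 to 13503) and Dlx1 (625 to 2915) were lowest in female 3 and highest in female 2. How much of the spread of any such gene comes from bulb tissue was not tested. Without female 3, the count of genes with a CV over 50% was 85 in place of 98.

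**Figure D4:**
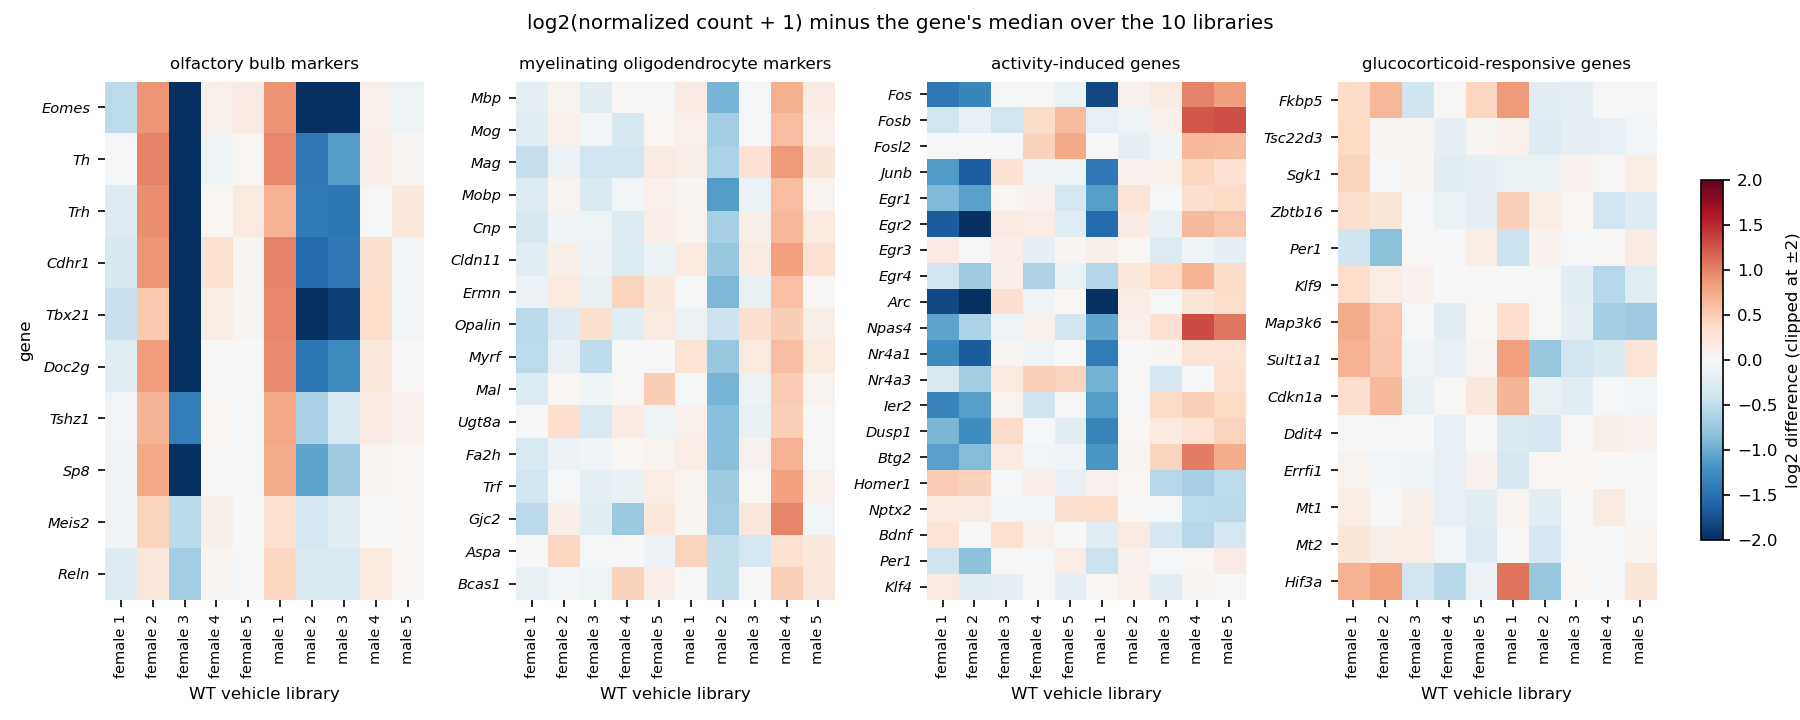
log2(normalized count + 1) minus the median of each gene over the 10 libraries (colour, clipped at 2 in either direction) for members of 4 lists with a mean of at least 50 (rows) in each library (columns). Female 3 is blue for all 10 olfactory bulb genes, male 2 blue and male 4 red for the myelin genes, and female 1, female 2 and male 1 blue for most activity-induced genes.

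A second pattern concerned the genes that neuronal activity induces within minutes, such as the transcription factors Fos, Egr1 and Npas4 and the synaptic protein Arc. For Arc, females 1 to 5 held 1416, 948, 6206, 4619 and 5067, and males 1 to 5 held 952, 5474, 4822, 5869 and 6324. Females 1 and 2 and male 1 were the 3 lowest, and no value lay between 1416 and 4619. Fos ran from 343 in male 1 to 2399.6 in male 4 with a median of 1204, Nr4a1, an orphan nuclear receptor, from 1009 in female 2 to 3857 in male 5 with a median of 3186, and Egr2 from 85.5 in female 2 to 549.8 in male 4 with a median of 354. Dusp1, a phosphatase that switches off MAP kinases, ran from 361 in male 1 to 1233 in male 5 with a median of 908.

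The same 3 libraries were the 3 lowest for 11 of the 20 listed genes: Fos, Junb, Egr1, Egr2, Arc, Npas4, Nr4a1, Ier2, Dusp1, Btg2 and Per1. Over all 13750 genes this held for 2.60%. The split was noticed in the values, so it gets no test. Other members did not follow it: Homer1 was highest in female 1 (8161) and lowest in male 4 (3589.6), Nptx2 was highest in male 1, and Egr3 stayed between 2652 and 3588. Of these 3 libraries, female 2 (23218) and male 1 (23621) also had the highest sums over the olfactory bulb list, and female 1 (13955) did not. The part of this in the activity-induced genes was not tested. In the other 49 libraries Arc ran from 746 to 10584 with a median of 3582.

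The promoters of Fos, Nr4a1 and Dusp1 are printed because these genes moved together, and were chosen after their values were seen. They are the 150 bases upstream of the transcription start in RefSeq (GRCm38.p6), for Fos chr12:85473740-85473889 (plus strand), for Nr4a1 chr15:101266696-101266845 (plus strand) and for Dusp1 chr17:26508473-26508622 (minus strand). They run 5′ to 3′ along the gene. Capitals mark TGACG on either strand (CGTCA on the printed strand), the core of the site that CREB binds.
Fos: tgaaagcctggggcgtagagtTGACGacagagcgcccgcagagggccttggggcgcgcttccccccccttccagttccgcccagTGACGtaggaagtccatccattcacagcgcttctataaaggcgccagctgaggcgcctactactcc
Nr4a1: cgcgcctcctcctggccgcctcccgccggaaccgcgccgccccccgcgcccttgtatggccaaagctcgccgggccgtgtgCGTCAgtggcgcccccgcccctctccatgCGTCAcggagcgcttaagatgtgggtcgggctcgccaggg
Dusp1: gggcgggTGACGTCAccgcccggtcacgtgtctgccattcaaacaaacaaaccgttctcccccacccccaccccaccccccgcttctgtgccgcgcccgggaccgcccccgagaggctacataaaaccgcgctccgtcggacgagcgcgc
In these stretches the first base of the matches lies 129 and 66 bases upstream of the start in Fos, 69 and 40 in Nr4a1, and 143 and 140 in Dusp1, where the matches on both strands overlap. In the 250 bases upstream of the start, on both strands, TGACG was found for 14 of the 15 listed activity-induced genes that have a promoter in the table, and for 19.8% of 27025 genes. The full palindrome TGACGTCA was found for 2 of the 15 (Dusp1 and Btg2) and for 1.77% of the genes, and these matches are among the TGACG matches. TATAAA was found for 1 of the 15, against 14.3%. The 14 genes with TGACG also include genes that did not follow the split over libraries, such as Homer1 and Bdnf. A match is a description of the letters and not of a bound site.

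Glucocorticoid-responsive genes showed the same 3 libraries at the other end. Female 1, female 2 and male 1 were the 3 highest libraries for 5 of the 14 genes with a mean of at least 50, against 2.14% of all genes: Hif3a (114 to 407), Cdkn1a, a cell cycle inhibitor (777 to 1443), Zbtb16, Sult1a1 and Map3k6. Fkbp5, the co-chaperone of the glucocorticoid receptor, ran from 547 in female 3 to 1298 in male 1 with a median of 720.4. The other 9 of the 14, among them Fkbp5, Sgk1, Ddit4 and Mt1, did not have these 3 libraries highest, and Per1, which is in this list and in the activity list, had these 3 libraries lowest. The time of day of sampling is not given by the labels. Of the 15 core clock genes, 1 had these 3 libraries lowest and 0 had them highest, against 2.60% and 2.14% of all genes. Among the others, Dbp ran from 1332 in female 4 to 2479 in female 3 with a median of 2048. Nr1d1 ran from 1646 in female 5 to 3967 in male 2 with a median of 2843. What part the time of day has in these values was not tested.

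Myelin genes formed another pattern across libraries. Mbp ran from 37446 in male 2 to 116779 in male 4 with a median of 71597 and Mag, a glycoprotein of the inner myelin sheath, from 2671 in male 2 to 7462 in male 4 with a median of 4143. Male 2 was lowest for 15 of 17 genes and male 4 highest for 16 of 17, where over all 13750 genes male 2 was lowest for 1111 and male 4 highest for 1876. The list summed to 97586 in male 2 and 283647 in male 4, with a median of 179305 and a CV of 25.7%. Oligodendrocyte precursor markers varied less, with a summed CV of 7.51%, but 7 of the 12 were also highest in male 4, and 4 were lowest in male 2. In the other 49 libraries the myelin sum ran from 55790 to 196899 with a median of 136025, so male 4 lay above all of them. Endothelial and mural sums were also highest in male 4 (15103 and 10808).

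Females and males were compared last, since sex is the only labelled difference within the 10 libraries. The spread behind these p-values was estimated over all 59 libraries of the series. With limma on log2(normalized count + 1) over 16599 genes, 262 were called at an adjusted p under 0.05 (1.58%), of which 167 were higher in females (1.01%) and 95 lower (0.572%). The Y-linked genes Ddx3y, Uty, Kdm5d and Eif2s3y had 0 to 3.29 in females and 389 or more in males, and Xist, the RNA that silences an X chromosome, had 15866 or more in females and 6.41 or less in males, so all 10 libraries match their labels. Of 554 genes tested on the X chromosome 12 were called, beside 262 of 16599 (1.58%) over all genes. Of these 12, 10 were higher in females. Among these are genes known to escape silencing: Eif2s3x ran from 4554 to 5031 in females and from 3010 to 3172 in males, a log2 difference of 0.63 (SE 0.04, limma adjusted p = 3.82e-16).

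Differences on the autosomes were small. The median size of the 244 autosomal calls was 0.31 on the log2 scale, and 14 of them were called in every fit that left out 1 of the 10 libraries. These include Actr6, a chromatin remodelling subunit (317 to 386 in males, 449.9 to 553 in females, log2 difference 0.52, SE 0.09, limma adjusted p = 0.000897), and Ltbp4, a binding protein of TGF-beta (1693 to 2124 in females, 2709 to 3308 in males, log2 difference -0.61, SE 0.10, limma adjusted p = 0.000319). Notch3, Pdgfrb and Cspg4, which mark mural cells of vessels, were the 3 genes of 12 on that list that were called, all lower in females. Cspg4 also marks oligodendrocyte precursors, where it was the 1 gene of 12 called. On the astrocyte, core clock and reference lists 1 gene each was also called, again lower in females. The median log2 differences (female minus male) were -0.26 for the mural, -0.14 for the precursor, -0.12 for the endothelial and -0.15 for the meningeal list, against -0.0135 over all genes tested. Such shifts were not limited to these lists. Over all lists without sex-linked genes they ran from -0.42 (activity-induced) to 0.14 (endoplasmic reticulum chaperones), with -0.19 for the olfactory bulb and -0.12 for microglia. Notch3 ran from 390 to 567 in females and from 628 to 921 in males (log2 difference -0.59, SE 0.14, limma adjusted p = 0.0169), and was not called without female 1 or without male 4 (adjusted p of up to 0.108). Female 5 had the lowest sum over the mural list, 7205, and the call of Notch3 held without it. The number of calls rested on single libraries: it was 29 without male 4, 39 without male 3, 49 without female 2, 72 without female 1, 126 without male 5, 137 without female 4 and 167 without female 3. Genes called higher in females had a median GC content of 43.0% and those called lower 57.4%, against 49.8% of the genes tested, and the part of base composition in these calls was not tested.

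The largest difference among the autosomal calls was in Bc1, a short noncoding RNA of neuronal dendrites that represses translation. It ran from 637 to 1564 in females and from 260 to 423 in males, with no overlap, and 821 of the 16599 genes tested (4.95%) had sexes that did not overlap. The log2 difference was 1.52 (SE 0.39, limma adjusted p = 0.038). It was called in 2 of the 10 fits without 1 library, with adjusted p of up to 0.124, so the call rests on single libraries. The 168 bases of Bc1 (chr7:144914470-144914637, plus strand, GRCm38, GENCODE M21) are printed 5′ to 3′ with an internal run of 23 A in capitals, since the library kit is one for poly(A) RNA. How this RNA entered the libraries was not tested.
Bc1: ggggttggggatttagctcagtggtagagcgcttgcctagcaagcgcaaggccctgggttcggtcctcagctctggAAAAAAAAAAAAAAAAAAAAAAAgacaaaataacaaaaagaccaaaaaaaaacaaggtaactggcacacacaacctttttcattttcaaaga

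**Figure D5:**
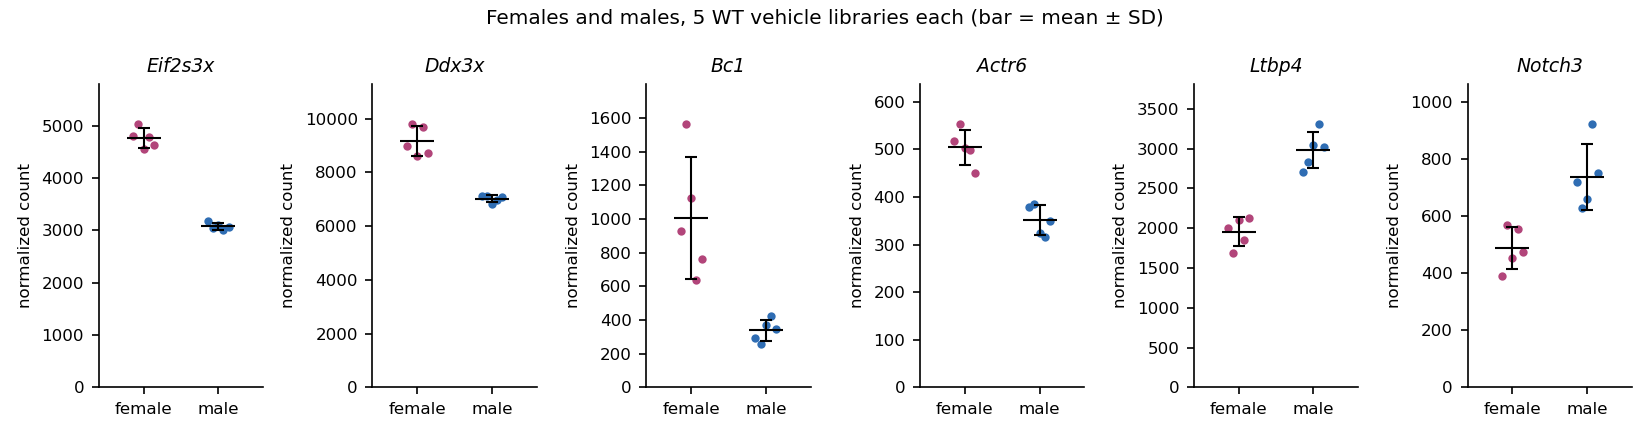
Normalized counts (y axis, from 0) of 6 genes in the 5 female and 5 male wild-type vehicle libraries, with mean ± SD. Eif2s3x, Ddx3x, Bc1 and Actr6 are higher in females and Ltbp4 and Notch3 lower, with no overlap, and Bc1 has the widest spread, from 637 to 1564 in females.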

How the data were processed

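RNA of prefrontal cortex was sequenced in 59 libraries (TruSeq Stranded mRNA kit, per the labels' protocols). The authors deposited 1 table of normalized counts, a signal value per gene, in which each count is divided by a size factor of its library, and the submitters' processing notes name Salmon 0.11.2, R 3.6.0, DESeq2 1.19.11 and GRCm38. Whole reads were recovered for 100.0% of the values (tolerance 0.001 reads), which gave the depth. All columns matched 1 sample each, so 0 columns were left unused.

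The 10 wild-type vehicle columns were taken as deposited. TPM used the longest protein-coding (otherwise longest) transcript of GENCODE M21. Words of 31 bases gave the sequence that genes share. Steps within families were tested with exact sign-flip tests over libraries. Sexes were compared with limma 3.58.1 (R 4.3.3) on log2(normalized count + 1), with trend and robust settings, in a model of all 12 groups so that they share an estimate of spread, for genes with a mean of at least 10. All p-values over many genes were adjusted by Benjamini-Hochberg. Fold changes on this log2 scale understate the change of low genes. edgeR 4.0.16 and DESeq2 1.42.0 on recovered reads, other lengths, filters, scalings, the replicate block and leaving out each library were alternatives. The scripts were tested on simulated data. Python 3.11.15, numpy 2.4.6, pandas 2.3.3 and scipy 1.17.1 were used.

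The genes named were the 30 most abundant by TPM and 10 by normalized count, the 30 most and 15 least variable, members of the lists and families, and up to 15 sex calls in each direction by size. Exceptions chosen after their values were seen were the promoters shown and the genes named for a pattern over libraries. The members, lists and families were chosen with earlier results of these data known. Promoters came from RefSeq, matched by symbol. Single values of some list and family members are not reported here, while counts and sums include them.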

Additional observations from a re-analysis of the deposited data

Results flagged for a closer look

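Single libraries stood apart from the others in 24 of 153 groups of values examined. A group held the 10 libraries, or the 5 of a sex for the named sex calls. The measure was the gap to the nearest library as a share of the whole range. Chance flags about 1 in 20 of independent groups, and these groups are not independent. Genes taken for their high CV are bound to hold such libraries. Female 5 was the library in 11 of the 24.

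Among summed marker lists, myelin genes reached 283647 normalized counts in male 4, with 196924 in the next library. Mural cell markers were lowest in female 5 at 7205, with 9293 next. Glucocorticoid-responsive genes were highest in female 1 at 26567, with 23618 next.

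Female 5 was set apart as the lowest library for 6 mitochondrial genes: mt-Cytb stood at 157844, mt-Nd1 at 115277, mt-Nd4 at 134223, mt-Nd2 at 66976, mt-Nd5 at 92967 and mt-Atp8 at 8696. The copies Gm10925 and Gm28437 were lowest there too, at 123226 and 116194. These genes come from 1 genome and 1 transcription unit or its copy, so they are not separate observations. By contrast mt-Atp6 was set apart by female 4, at 142161.

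Of the most variable genes, 3 were high in male 3: Hist2h2aa2 at 625, Gm45837 at 472 and Pagr1a at 239. Female 5 was high for Rps12-ps3 (492) and Gm12671 (9385), female 2 for Gm6361 (692) and Rps27 (246), and female 4 for Gm28037 (844) and Drd2 (293, with 103 next).

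Within a sex, the low values of the sex-linked genes held 3 more. Xist was at 6.41 in male 1 and 0 in the other 4 males. Ddx3y was at 3.29 in female 1 with 0.935 in the next female, and Gm49768 at 59.3 in female 1 with 38.5 next.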

How the results depend on the processing

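With the union of exons as the length in place of the longest transcript, Stmn1 stood under Stmn3 (log2 ratio -0.087), Gria2 under Gria1 (-0.43) and Grm5 under Grm3 (-0.21). With the median transcript length, Grin1 stood under Grin2b (-1.58), Dlgap3 under Dlgap1 (-0.67), Scn2a under Scn8a (-1.82), Kcnc4 under Kcnc1 (-0.37) and Gsk3a under Gsk3b (-0.31). Leaving out 1 library moved the log2 ratio of Gria2 over Gria1 between -0.00162 (without male 2) and 0.051 (without female 5), and that of Htr2a over Htr2c between -0.00233 (without male 2) and 0.18 (without male 4). The count of 140 ordered pairs was 132 in the same direction with the union length, 123 of them among the 140, with 15 called in the opposite direction. It was 125 with the median length, 118 of them among the 140, with 19 in the opposite direction, and 137 to 141 without 1 library. The share of the TPM in the 100 most abundant genes was 41.6% with the union length, 29.9% with the median length, 24.1% without mitochondrial genes and 16% without these and their copies.

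The 98 genes with a CV over 50% became 302 with a mean of at least 10, 46 among protein-coding genes with few shared words, and 85 to 114 without 1 library. The median CV stayed between 9.43% and 11.7% under every alternative tried.

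The count of 262 sex calls was 574 with DESeq2 (364 higher and 210 lower in females) and 245 with edgeR. It was 228 when only the 10 libraries were fitted, 114 in each direction, and 137 of the 228 were among the 262. Leaving out 1 library gave 29 (without male 4) to 380 (without male 2). With the replicate block, fitted on these 10 libraries alone, it was 104, of which 46 were higher in females. Bc1 was not called with the block (limma adjusted p = 0.108), while Eif2s3x, Actr6, Ltbp4 and Notch3 were. The libraries were not treated as pairs: deviations of the 5 same-numbered pairs correlated between -0.168 and 0.253, with 3 pairs over 0.1. Of the 10 libraries, 4 correlated best with their own number, each among 5 libraries of the other sex. Chance alone gives some such matches, so this count does not decide whether libraries were paired. The cause of these differences was not tested. The edgeR, DESeq2, shared-word, within-sex and copy alternatives were chosen after seeing the data.

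Reads that fit several genes limit single values for mitochondrial genes, ribosomal pseudogenes and histones. Levels across genes rest on annotated lengths, which the replicate error does not cover. With 5 libraries of each sex, the depth of replication limits which small differences are called.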

Other observations

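Several groups of genes outside the comparisons above held levels that describe the state of the tissue. Of the 23 sterol synthesis genes all were in the table. Hmgcs1, which makes the precursor of mevalonate, led with 288 ± 27.7 TPM, followed by Srebf2, the transcription factor of the pathway (119 ± 13.5) and Msmo1 (104 ± 11.1). Their summed normalized count had a CV of 6.67%. Chaperones of the endoplasmic reticulum had a like spread, with a CV of 6.70% of the sum of 18 genes, and were led by Calr (347 ± 20.4 TPM), Hsp90b1 (259 ± 30.4) and Canx (185 ± 12.2).

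Microglial transcripts included Ctss, a lysosomal protease (99 ± 8.25 TPM), and the complement genes C1qa (76.9 ± 8.05), C1qb (75.3 ± 7.8) and C1qc (72.3 ± 8.28), and female 5 had the lowest sum of the 15 markers. Interferon-stimulated genes were low, with Ifit3 at 10.3 ± 2.79 and Isg15 at 4.21 ± 0.978 TPM, and their sum of 13 genes ran from 2031 to 2594. Of the proliferation markers, Pcna, which also acts in DNA repair, stood at 56.7 ± 4.37 TPM. The markers of dividing cells Top2a (1.77 ± 0.72) and Mki67 (1.04 ± 0.38) were near 1 TPM and were highest in female 4. The hemoglobin genes Hbb-bs (572 ± 88.8 TPM), Hba-a2 (499 ± 84.1) and Hba-a1 (291 ± 49.3) stood above most neuronal receptors, and Hba-a1 and Hba-a2 code for the same protein, so the split between them is uncertain.

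Thalamic markers were low and uneven. Calb2, also an interneuron marker, ran from 338 in female 3 to 3379 in female 2 with a median of 2023, with the same ends as the olfactory bulb genes. Tcf7l2, a transcription factor of thalamic neurons, ran from 82.9 in female 5 to 197 in male 4 with a median of 133 and did not share these ends. The sum over the 9 thalamic markers in the table, Calb2 included, ran from 4393 in female 3 to 8644 in male 1. These were also the end libraries of the olfactory bulb sum. Of the 9 markers, 4 were lowest in female 3.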
